A study of Mus musculus with 12 samples.

Results

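Inguinal-high genes shared by adipocytes and stromal vascular cells were selected from the deposited expression tables as genes with a higher level in inguinal adipose tissue (IAT) than in epididymal adipose tissue (EAT) in both cell fractions. Levels are given as TPM, the authors' measure of transcript abundance, which is scaled to gene length and library size. A gene was a member when its group mean, with 0.1 TPM added, was at least 3 times as high in IAT as in EAT in adipocytes and again in stromal vascular cells. It also had to reach a mean of 1 TPM in both IAT groups, and every IAT library had to lie above every EAT library within each fraction. The rule took 41 of the 32182 genes listed, and 12305 genes met the TPM minimum. The members were thus chosen on their depot differences, which are given here as a description and support nothing.

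The mice were males of the inbred strain C57BL/6J, 8 weeks old when a high-fat diet began, which they ate for 10 weeks. All groups shared this diet, and no lean control group is among the samples. Both depots were digested with collagenase I into adipocytes and stromal vascular cells (SVCs), which gave 4 groups of 3 libraries, 1 for each fraction of each depot. The labels do not say whether replicates were separate animals or pools, so the spread behind the p-values may be a technical one.

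EAT is a visceral depot beside the epididymis, and IAT is a subcutaneous depot of the groin. Adipocytes store lipid, and the stromal vascular fraction holds the precursors of adipocytes together with fibroblasts, immune cells and endothelial cells. Precursors and mature adipocytes of a depot are known to keep position-dependent expression of developmental transcription factors, which is one known way for a depot difference to appear in both fractions. The files name genes by identifiers of UCSC transcripts and not by symbol, so the marker lists, the functions of the members and their sequences are not analysed here. Single members are therefore given by their rank or level, and 4 of them by identifier.

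The libraries held 20707325 to 26349357 expected counts, the read counts that RSEM assigns to each gene. All 41 members passed the filter on low counts. EAT adipocyte replicate 2 stood apart: the chi-square per degree of freedom between its counts and those of replicates 1 and 3 was 174 and 154, against 28.5 between those replicates and at most 49.4 within the other groups.

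The members reached very different levels, and their level depended on the fraction. In IAT adipocytes their mean levels ran from 1.06 to 14674 TPM with a median of 7.02, and 7 members were at 100 TPM or more. In IAT SVCs the means ran from 1.37 to 281 TPM with a median of 6.62, and 1 member reached 100 TPM. In EAT the medians were 0.42 TPM in adipocytes and 0.773 TPM in SVCs. Of the 41 members, 16 stayed below a mean of 1 TPM in both EAT groups, 10 in EAT adipocytes alone and 6 in EAT SVCs alone. The remaining 9 were at 1 TPM or more in both EAT groups, so for these the depots differed in amount and not in detection at this level.

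**Figure D1:**
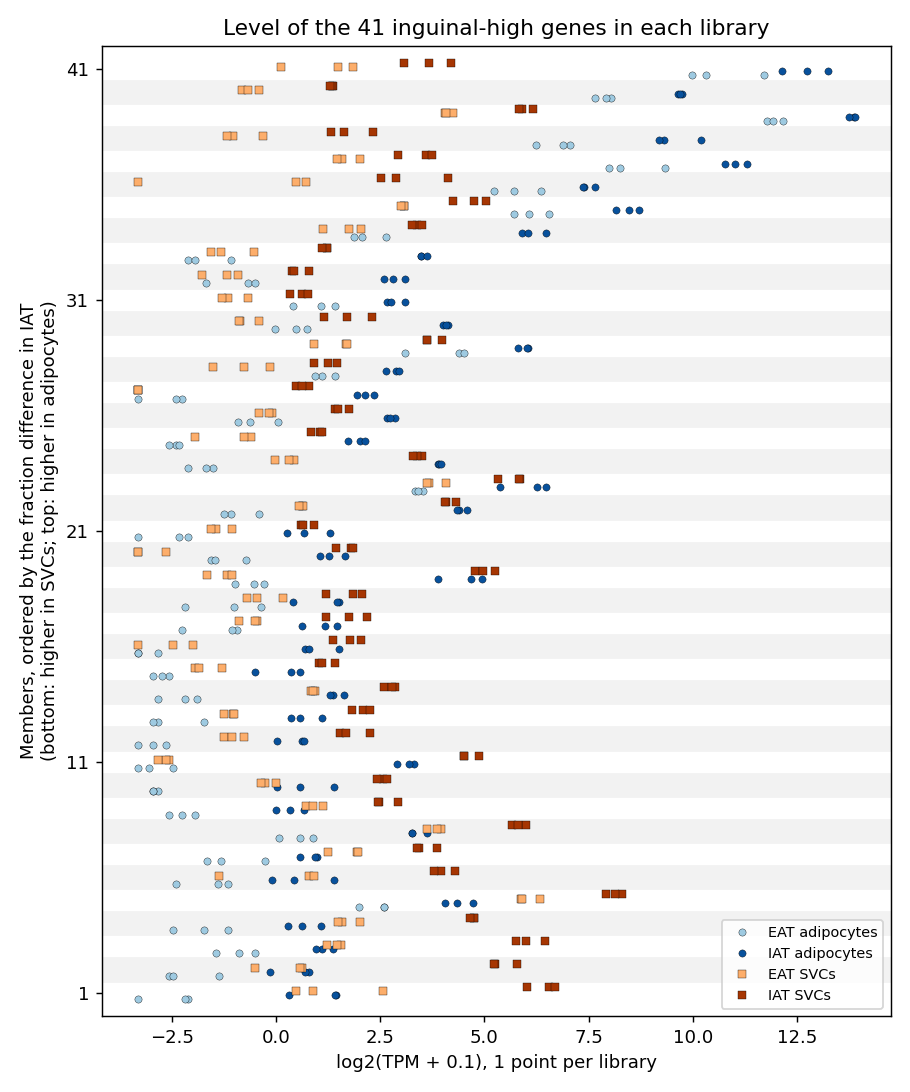
Level of each of the 41 members in each of the 12 libraries, as log2(TPM + 0.1) on the horizontal axis, with 1 point per library, circles for adipocytes, squares for SVCs, light colours for EAT and dark colours for IAT. Members are ordered from those higher in IAT SVCs (bottom) to those higher in IAT adipocytes (top); the dark points lie to the right of the light points of the same shape in every row, as the rule requires.

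Together the members made up 2.64% ± 0.401 (SD, n = 3) of all TPM in IAT adipocytes and 0.681% ± 0.165 in EAT adipocytes. In SVCs they made up 0.0941% ± 0.0103 in IAT and 0.0161% ± 0.00132 in EAT. Most of the share in adipocytes came from a single gene, the most abundant member, which held 56.3% ± 6.07 of the members' TPM in IAT adipocytes and 60.5% ± 12.8 in EAT adipocytes. The same gene held 6.65% ± 0.216 of it in IAT SVCs. Its levels were 15037, 15145 and 13841 TPM in IAT adipocytes and 3510, 3894 and 4580 TPM in EAT adipocytes. In SVCs they were 71.6, 59.5 and 56.9 TPM in IAT and 16.6, 19.0 and 16.9 TPM in EAT.

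The depot difference ranged from the threshold to near absence in EAT. The ratio of IAT to EAT had a median of 7.14 in adipocytes (3.11 to 66.3) and of 5.16 in SVCs (3.01 to 160), with 0.1 TPM added to both means. It reached 10 for 15 members in adipocytes, for 10 in SVCs and for 6 in both. In edgeR's quasi-likelihood test, all 41 members passed an adjusted p below 0.05 as higher in IAT adipocytes, where 18.1% of 15813 tested genes did so and 21.6% passed as higher in EAT (23.5% and 17.8% with DESeq2's size factors). All 41 also passed as higher in IAT SVCs, where 6.86% of tested genes did so. Nothing is read from these counts, since the rule used both contrasts.

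The member with the largest geometric mean of the ratios was nearly undetected in EAT. It had 9.82, 8.98 and 7.43 TPM in IAT adipocytes and 0.08, 0.02 and 0.00 TPM in EAT adipocytes. In IAT SVCs it had 29.3, 22.8 and 22.6 TPM, and in EAT SVCs 0.07, 0.06 and 0.04 TPM. The second in that order reached 25.6, 30.6 and 14.6 TPM in IAT adipocytes against 0.72, 0.59 and 0.41 TPM in EAT adipocytes. Its SVC levels were 27.4, 31.4 and 38.1 TPM in IAT against 0.34, 0.38 and 0.22 TPM in EAT. Both thus stood at 7.43 TPM or more in each of the 6 IAT libraries, and below 1 TPM in all 6 EAT libraries.

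A few members had so few EAT counts that the size of their depot difference is poorly bounded. One had no count in the 3 EAT SVC libraries and 89 in the 3 IAT SVC libraries (1.45 TPM ± 0.166, SD, n = 3), at least 31.8-fold higher when 3 counts are taken as the floor of the EAT group. Another had 1 count in EAT SVCs and 161 in IAT SVCs, a ratio of 172 with an exact 95% interval of 30.5 to 6850. In EAT adipocytes 4 members had 1 to 3 counts, with ratios between 19.6 (5.07 to 167) and 137 (24.2 to 5443). These intervals and the floor cover counting error only. The median log2 depot difference of the members was 3.22 in adipocytes and 2.57 in SVCs, also with the member at 0 set to its bound; over all tested genes it was -0.02 and 0.01.

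At the threshold itself, the members just inside had smaller ratios of 3.01 (in SVCs) and 3.11 (in adipocytes). The genes just outside, which met the other conditions, had 2.97 and 2.91, both in adipocytes. Those genes stood at 3262 and 1844 TPM in IAT adipocytes and at 8.80 and 11.5 TPM in IAT SVCs.

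The comparison of adipocytes with SVCs within a depot asks in which fraction the members are mainly expressed. The rule did not compare the fractions, but it used the levels of all 4 groups, with a minimum of 1 TPM in IAT. The members' shares below are thus not independent of the rule. The members were spread over both fractions. In IAT, 20 of 41 had the higher level in adipocytes and 14 in SVCs, and 7 did not pass (adjusted p below 0.05, edgeR's quasi-likelihood test). Of all 15813 tested genes, 29.5% were higher in IAT adipocytes and 40.5% in IAT SVCs. Among the 12266 tested genes that met the minimum of 1 TPM these shares were 33.3% and 35.0%, against 48.8% and 34.1% of the members. The median log2 difference (adipocytes minus SVCs) was 0.16 for the members, with quartiles of -1.14 and 2.71, and -0.06 for the genes with that minimum. Differences of 4-fold or more were called for 14 members in favour of adipocytes and for 8 in favour of SVCs; such calls took 7.85% and 14.2% of all tested genes, and 6.44% and 7.20% of those with the minimum.

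In EAT the balance among members was near even. There, adipocytes had the higher level for 16 members and SVCs for 18, and 7 did not pass; 30.4% and 32.0% of all tested genes were called in these directions, and 35.3% and 25.7% of those with at least 1 TPM in both IAT groups. Fitted to the 6 EAT libraries alone, 11 and 11 members passed, with 26.7% and 25.9% of the genes tested there. The filter on low counts was rerun on these libraries, so a member that it removed was untested and could not pass. Of the 20 members higher in IAT adipocytes, 14 (70.0%) were also higher in EAT adipocytes, against 80.9% of the 4085 genes with the minimum called in that direction. Of the 14 higher in IAT SVCs, 13 (92.9%) were also higher in EAT SVCs, against 59.4% of 4298 such genes. The fraction difference had the same sign in both depots in 34 of 41 members (82.9%), about the share among all tested genes (81.5%) and among those with the minimum (80.1%). These comparisons share no library, but the fit gave each gene 1 spread for both. The fraction differences of the depots are also tied through the depot differences that chose the members, so the members' shares are not independent of the rule. Among those higher in IAT SVCs, 8 of 14 members were so by 4-fold or more, against 883 of the 4298 genes. Nothing is read from the unlike shares.

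**Figure D2:**
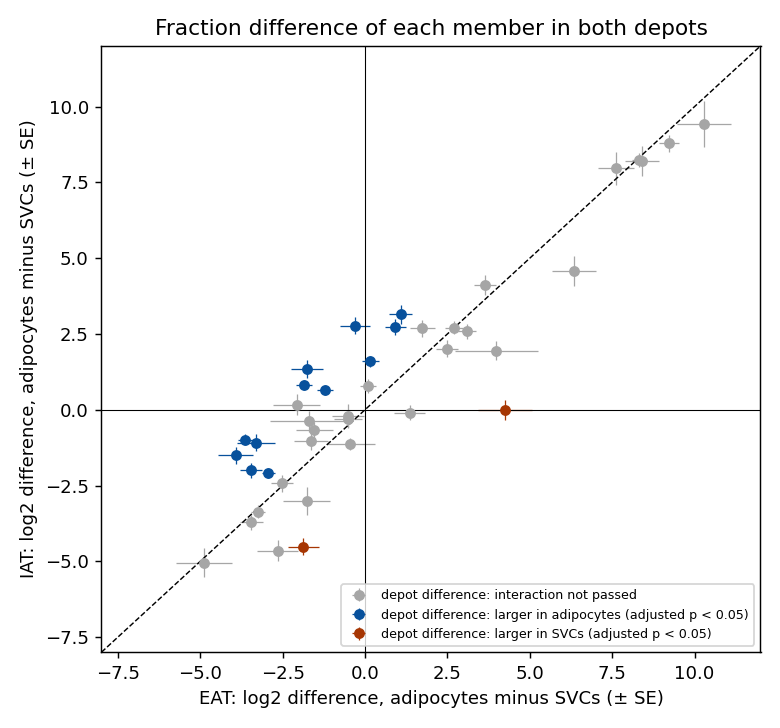
Log2 difference between adipocytes and SVCs (± SE) of each of the 41 members, in EAT on the horizontal and in IAT on the vertical axis, from edgeR's fit; positive values are higher in adipocytes and the dashed line marks equal differences. Colours mark members whose depot difference was larger in adipocytes (12, blue) or in SVCs (2, brown) by the interaction test, and in the upper left quadrant lie members that were called higher in SVCs in EAT and in adipocytes in IAT (3, all blue), with 2 others that passed in 1 depot each.

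The largest fraction differences belonged to genes that were abundant in adipocytes. The member uc007gaj.2 (2 transcripts) had 6821, 9702 and 4501 TPM in IAT adipocytes and 1014, 3358 and 1287 TPM in EAT adipocytes. In SVCs it had 12.6, 18.4 and 8.31 TPM in IAT and 2.70, 3.50 and 0.99 TPM in EAT. EAT adipocyte replicate 2 was the highest of its group, and below the lowest IAT library, as the rule requires. This member's log2 difference between IAT adipocytes and IAT SVCs was 9.44 (SE 0.76, adjusted p = 4.14e-07, edgeR), higher in 3 of 3 adipocyte libraries. In EAT it was 10.28 (SE 0.81).

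The member uc009ort.1 (2 transcripts) varied least between replicates among those named. It had 862, 809 and 826 TPM in IAT adipocytes and 202, 262 and 242 TPM in EAT adipocytes. In SVCs its levels were 2.47, 2.45 and 2.34 TPM in IAT and 0.66, 0.47 and 0.53 TPM in EAT. The depots did not overlap within either fraction, as the rule requires, and the fractions did not overlap within either depot. The log2 fraction difference was 8.79 in IAT (SE 0.28, adjusted p = 3.64e-10, edgeR) and 9.22 in EAT (SE 0.30).

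At the other end stood genes of the SVC fraction. The member uc009kpy.1 (2 transcripts) had 94.2, 65.5 and 103 TPM in IAT SVCs and 1.74, 5.85 and 1.30 TPM in EAT SVCs. In adipocytes it had 2.60, 1.15 and 2.59 TPM in IAT, and 0.13, 0.12 and 0.00 TPM in EAT, where 4 counts were seen over 3 libraries. The log2 difference between adipocytes and SVCs was -5.04 in IAT (SE 0.48, adjusted p = 1.62e-06, edgeR).

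The member uc007pjj.1 (2 transcripts) had 55.1, 38.4 and 37.5 TPM in IAT SVCs and 1.43, 0.61 and 1.40 TPM in EAT SVCs. Its adipocyte levels were 1.62, 0.81 and 1.51 TPM in IAT and 0.29, 0.07 and 0.08 TPM in EAT. IAT adipocytes thus lay at about the level of EAT SVCs, and the log2 fraction difference in IAT was -4.64 (SE 0.34, adjusted p = 1.83e-07, edgeR).

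The members most abundant in adipocytes were present in SVCs at a very small share of their adipocyte level. In 5 members, at 801 to 14674 TPM in IAT adipocytes, the IAT SVC level was 0.187% to 0.518% of the adipocyte level, and in EAT it was 0.127% to 0.785%. The next member in that order stood at 5.68% in IAT. Of the 1393 genes at 100 TPM or more in IAT adipocytes, 44 were below 1%, these 5 included. The depot ratios of the 5, which the rule used, were 3.53 to 7.32 in adipocytes and 3.40 to 6.16 in SVCs. RNA of adipocytes in the SVC libraries and expression by SVCs cannot be told apart in these data, and fewer cells of a type and less RNA per cell cannot be told apart either.

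The 39 other genes below 1% are by construction those that failed the rule, so their depot differences cannot be set against those of the 5 members. Most of them were higher in IAT SVCs than in EAT SVCs by the mean (29 of 39, median log2 ratio 0.33), and 37 of 39 were higher in IAT adipocytes than in EAT adipocytes (median log2 ratio 1.11). Their summed level, which the most abundant genes carry, overlapped between the depots in SVCs, at 209 to 258 TPM in the IAT and 238 to 298 TPM in the EAT libraries. In adipocytes their sum was 48110 to 52497 TPM in IAT and 24565 to 33674 TPM in EAT. Relative to the mean sum in adipocytes of the same depot, the SVC libraries held 0.419% to 0.519% in IAT and 0.780% to 0.977% in EAT. These genes were chosen on their IAT levels, at 100 TPM or more in adipocytes and a share below 1%, with no condition in EAT. That choice favours high IAT adipocyte levels and a low IAT share, so nothing is read from the depot differences of these genes. The part of adipocyte RNA in the SVC levels of the 5 members was not tested. Without them, 15 of 36 members were higher in IAT adipocytes and 14 in IAT SVCs; in EAT 11 and 18 were.

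**Figure D3:**
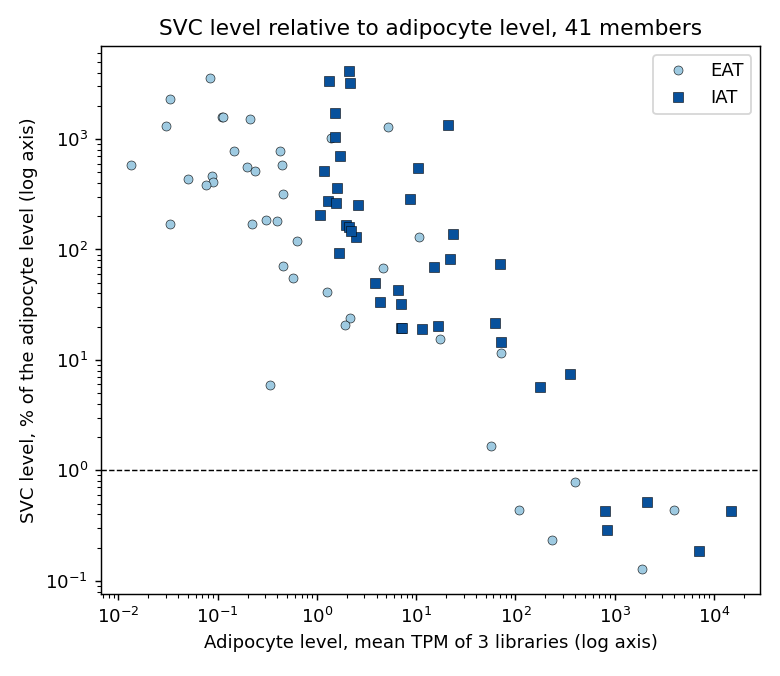
SVC level as a percentage of the adipocyte level (vertical, log axis) against the adipocyte level (horizontal, mean TPM of 3 libraries, log axis) for the 41 members in EAT (circles) and IAT (squares); both axes share the adipocyte level, and the member listed at 0 in EAT SVCs has no circle. The dashed line marks 1%, below which lie 5 members in each depot, between 0.127% and 0.785%.

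In the reverse direction, no member came as low, which the rule nearly fixed. With its minimum of 1 TPM in IAT adipocytes, a share below 1% needs over 100 TPM in IAT SVCs, and 1 member reached that level. The adipocyte level was below 10% of the SVC level in IAT for 6 members, with 2.41% as the lowest. Over the 1498 genes at 100 TPM or more in IAT SVCs, the lowest adipocyte share was 2.04% and the lowest hundredth lay under 4.71%. The most abundant member in SVCs had 318, 242 and 283 TPM in IAT and 81.1, 59.0 and 60.1 TPM in EAT. In adipocytes it had 26.3, 16.4 and 20.1 TPM in IAT and 5.90, 3.88 and 5.92 TPM in EAT, 7.45% of its SVC level in IAT. The part of SVC RNA in these adipocyte levels was not tested.

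Between these ends lay 7 members that did not pass as different between the IAT fractions, each below 1 TPM in both EAT groups. Not passing does not show equal levels. The member nearest to passing (adjusted p = 0.0527, edgeR) had 1.19, 1.39 and 0.61 TPM in IAT adipocytes and 1.95, 2.04 and 2.55 TPM in IAT SVCs, without overlap. A further member differed little between the fractions: it had 77.4, 89.2 and 41.2 TPM in IAT adipocytes, 57.4, 57.2 and 39.9 TPM in IAT SVCs, 11.5, 9.96 and 10.4 TPM in EAT adipocytes, and 12.7, 16.7 and 12.1 TPM in EAT SVCs. It passed as higher in IAT adipocytes, by 0.79 log2 (SE 0.24, adjusted p = 0.0114, edgeR), and did not pass in EAT (0.09, SE 0.25, adjusted p = 0.752). By TPM its IAT fractions overlapped, and in EAT all its adipocyte libraries lay below its SVC libraries. TPM and the scaled counts of the fit thus gave unlike fraction differences for this member.

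In 3 members the order of the fractions turned between the depots: adipocytes had the higher level in IAT and SVCs in EAT, and the test was passed in each. These are 7.32% of the members, while 0.715% of all tested genes and 0.701% of those with the minimum of 1 TPM were called in this way. A turn is made of the depot differences that chose the members, so the members' share is not independent of the rule. The first had 14.7, 15.0 and 15.3 TPM in IAT adipocytes and 11.3, 10.4 and 9.69 TPM in IAT SVCs, without overlap. In EAT it had 0.25, 0.21 and 0.13 TPM in adipocytes and 1.25, 0.89 and 1.14 TPM in SVCs. The second had 24.1, 20.8 and 20.2 TPM in IAT adipocytes and 19.8, 16.9 and 16.7 TPM in IAT SVCs. In EAT its levels were 0.66, 0.37 and 0.32 TPM in adipocytes and 1.45, 1.46 and 1.36 TPM in SVCs. The third had 3.95, 3.23 and 4.32 TPM in IAT adipocytes and 1.69, 1.97 and 2.06 TPM in IAT SVCs, against 0.09, 0.07 and 0.10 TPM in EAT adipocytes and 0.56, 0.16 and 0.49 TPM in EAT SVCs. The log2 fraction differences were 0.82, 0.66 and 1.35 in IAT and -1.86, -1.23 and -1.77 in EAT, in the same order of members, and each held its sign and passed in all 19 settings that fitted 3 or more groups. Those settings all used counts, and the fits to 2 groups, in which fewer members passed in EAT, are not among them. By mean TPM the adipocyte excess in IAT was smaller, at 15.0 against 10.5, 21.7 against 17.8 and 3.83 against 1.91 TPM. EAT levels of these members rest on 10 to 93 summed counts.

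The interaction of depot and fraction asks whether a member's depot difference was of unequal size in adipocytes and SVCs. Of 41 members, 12 had a larger IAT excess in adipocytes, 2 had a larger one in SVCs and 27 did not pass (edgeR, adjusted p below 0.05). Of all tested genes, 7.76% were called in the first direction and 10.4% in the second, and of those with at least 1 TPM in both IAT groups 8.00% and 11.5%. With DESeq2's size factors in the same fit the shares of all tested genes were 9.66% and 8.29%, and 12 and 2 members were called. The interaction is made of the 2 depot differences that chose the members, so these counts are not independent of the rule. Without EAT adipocyte replicate 2 the counts of members were 13 and 2, while the shares of all 16065 genes then tested rose to 16.2% and 20.4%. The 5 members at under 1% of their adipocyte level in SVCs were all among the 27, as were the 4 named members.

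**Figure D4:**
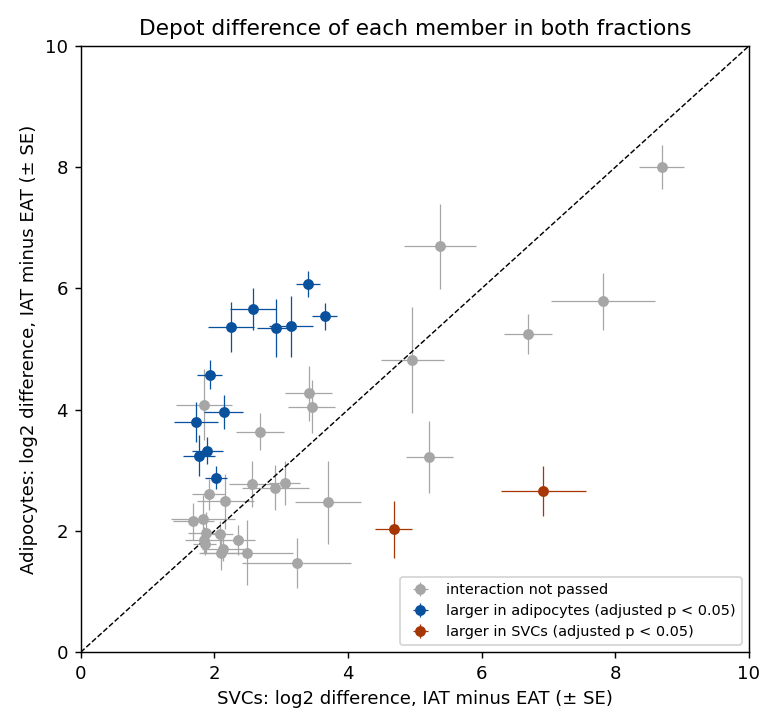
Log2 depot difference (IAT minus EAT, ± SE) of each of the 41 members in SVCs (horizontal) and adipocytes (vertical), from edgeR's fit; the dashed line marks equal differences. The 12 blue points above the line had a larger difference in adipocytes and the 2 brown points below it a larger one in SVCs. All points lie above 1 on both axes. The rule bounds the TPM ratios and not these fitted values, but high values on both axes follow from that choice.

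The 12 members with a larger IAT excess in adipocytes had interactions of 0.86 to 3.11 log2. Within IAT, 7 of these had the higher level in adipocytes and 5 in SVCs, so genes of either fraction were among them. The largest interaction, 3.11 (SE 0.56, adjusted p = 0.00299), was that of the third member whose fraction order turned. The next, 3.08 (SE 0.52, adjusted p = 0.0021), belonged to a member with 11.1, 11.0 and 12.3 TPM in IAT adipocytes and 0.37, 0.13 and 0.16 TPM in EAT adipocytes. Its SVC levels were 2.22, 2.23 and 2.05 TPM in IAT and 0.59, 0.24 and 0.30 TPM in EAT. The longest member, of 13874 bases, had 2.49, 2.99 and 2.34 TPM in IAT adipocytes against 0.12, 0.04 and 0.17 TPM in EAT adipocytes, and 7.19, 5.91 and 6.77 TPM against 1.82, 1.69 and 1.75 TPM in SVCs. Its interaction was 2.64 (SE 0.30, adjusted p = 0.000275). Of the 12, 8 passed in all 19 settings.

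The 2 members with a larger IAT excess in SVCs stood at unlike levels in IAT SVCs. The first had 3.41, 3.51 and 2.62 TPM in IAT SVCs and 0.06, 0.00 and 0.00 TPM in EAT SVCs, where 1 count was seen. In adipocytes it had 2.32, 3.05 and 1.97 TPM in IAT and 0.24, 0.51 and 0.26 TPM in EAT, so that in EAT it was detected mainly in adipocytes while in IAT the fractions overlapped. It passed in all 19 settings. The other had 88.0, 64.3 and 53.8 TPM in IAT SVCs and 2.86, 2.64 and 2.22 TPM in EAT SVCs, and in adipocytes 2.06, 1.86 and 2.47 TPM in IAT and 0.61, 0.44 and 0.27 TPM in EAT. Its interaction was -2.66 (SE 0.68, adjusted p = 0.0276) and did not pass without EAT adipocyte replicate 1, EAT adipocyte replicate 2 or IAT SVC replicate 1.

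By the median, the members were shorter than other genes at their minimum level, a difference given without a test. Their median length was 1977 bases (quartiles 1632 and 2665, range 363 to 13874), and that of the other 12264 genes with at least 1 TPM in both IAT groups was 2640 bases (quartiles 1665 and 3947). A single transcript was listed for 18 members, 43.9%, and for 31.1% of the other genes. The median coefficient of variation of the members between replicates was 41.0% in EAT adipocytes, 19.1% in IAT adipocytes, 25.6% in EAT SVCs and 15.6% in IAT SVCs. EAT adipocyte replicate 2 was the highest of its group in 9 members and the lowest in 18.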

How the data were processed

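The deposited tables, 1 per library, hold expected counts (RSEM's estimated counts), TPM and lengths per gene, per the file headers. Lengths are in bases. Bowtie2 2.2.6, RSEM 1.2.25 and limma, with the build GRCm38 (mm10), are listed in the submitters' processing notes, with no step given for each; whether counting used strand is not stated, so genes that overlap or have near-identical copies are uncertain. The authors' TPM values were used for the rule and for levels. Genes were named by their first transcript identifier. No table used here pairs identifiers with symbols, so the symbol lists and sequences were not analysed, and 4 identifiers are given: the 2 members in each direction with the largest fraction difference in IAT, among those with an adjusted p below 0.05 and at least 3 TPM in the higher group. Other members singled out by rank or level were chosen after their values were seen.

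Expected counts were rounded, scaled with TMM and filtered with filterByExpr (15813 genes). All 12 libraries were fitted with 1 coefficient per group (8 residual degrees of freedom) and tested, two-sided, with edgeR 4.0.16 in R 4.3.3, with Benjamini-Hochberg adjustment over all genes tested at 0.05. SE is the log2 difference divided by the root of F. Log2 differences from the fit rest on these scaled counts, while levels are in TPM, so their sizes can differ, also between fractions. The fit was tested on simulated counts. An exact permutation test of 3 against 3 libraries cannot go below p = 0.1. Members and lists were chosen with earlier results of these data known.

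Deviations from the group means across genes were correlated between libraries with the same replicate number. For the IAT groups r was 0.225, 0.148 and 0.227 for numbers 1, 2 and 3, and for the SVC groups 0.187, 0.153 and 0.149. EAT adipocytes and IAT SVCs gave 0.146, 0.207 and 0.0828. Libraries with unlike numbers were not compared, so whether the numbers pair the samples stays unknown. In each pair of groups other than the IAT groups and the SVC groups, at least 1 value was below 0.1. Alternatives were other scalings, no filter, DESeq2 1.42.0, limma-voom (limma 3.58.1), a replicate block, fits to 2 groups, other settings of the rule and leaving out each library. The block within 2 groups, and leaving out the 5 members lowest in SVCs, were chosen after seeing the data.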

Additional observations from a re-analysis of the deposited data

Results flagged for a closer look

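The depot difference differed in size between adipocytes and SVCs, by the interaction test, for 14 of the 41 members: 12 with a larger IAT excess in adipocytes and 2 with a larger one in SVCs. Of all 15813 tested genes, 7.76% and 10.4% were called in these directions. The interaction is made of the 2 depot differences that chose the members, so the counts are not independent of the rule.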

How the results depend on the processing

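The number of members depended on the rule: 12 with a pseudocount of 1 TPM, 116 at a ratio of 1/2, 23 at 1/4 and 16 with a minimum of 3 TPM. With the other settings it was 39 to 49, and 39 to 43 without 1 library. In a fit to the 6 EAT libraries alone, 11 members were higher in EAT SVCs in place of 18, and 11 also with the replicate block in that fit. Both fits reran the filter on low counts, so the drop can include members that were no longer tested. Without 1 library, the calls were 39 to 41 and 37 to 41 for the depot difference in adipocytes and SVCs, 19 to 20 and 14 to 15 for members higher in IAT adipocytes and IAT SVCs, 13 to 16 and 14 to 18 for those in EAT, and 9 to 13 and 1 to 3 for the interaction in favour of adipocytes and SVCs. The count of 1 arose without EAT adipocyte replicate 1 and without IAT SVC replicate 1, and that of 3 without EAT adipocyte replicate 3. With limma-voom, 8 and 2 members were called for the interaction, with 8.26% and 9.90% of all tested genes. In a fit to the 6 adipocyte libraries alone, with the filter rerun, 36 members passed as higher in IAT adipocytes, with 12.3% of the genes tested there. With the replicate block in the fit to all libraries, 20 and 15 members were called in IAT, 16 and 17 in EAT, and 12 and 2 for the interaction; it moved no count of members by over 1.5 times. Interactions of named members that had not passed changed sign: uc007gaj.2 to 0.20 without EAT adipocyte replicate 2, and uc009kpy.1 to 0.048 with DESeq2 and to 1.13, 0.14, 0.081 and 0.19 without EAT adipocyte replicate 2, IAT adipocyte replicate 2, EAT SVC replicate 1 and EAT SVC replicate 3; the cause was not tested. Without 1 library these interactions ran from -1.24 to 0.20 and from -0.97 to 1.13. DESeq2's size factors moved the median log2 difference of all genes from -0.02 to 0.11 for the depots in adipocytes and from -0.24 to -0.09 for the fractions in IAT, and library size alone moved the latter to -0.44 and that in EAT from -0.04 to -0.21. Depth limits the EAT values most, where several members had under 10 counts in a group.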

Other observations

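The files number their genes from 1 to 32408. Of the 41 members, 4 formed 2 pairs that lay 3 and 2 numbers apart, while the next smallest gap was 19 and the median gap 512.5. What the order of these numbers follows is not stated in the files. The members of the first pair had means of 1.96 and 1.61 TPM in IAT adipocytes, 3.28 and 5.81 in IAT SVCs, 0.0133 and 0.0333 in EAT adipocytes, and 0.0767 and 0.773 in EAT SVCs. Those of the second pair had 3.83 and 11.5 TPM in IAT adipocytes, 1.91 and 2.17 in IAT SVCs, 0.0867 and 0.22 in EAT adipocytes, and 0.403 and 0.377 in EAT SVCs. Both genes of the second pair were higher in IAT adipocytes than in IAT SVCs, by 1.35 and 2.77 log2, and hold the 2 largest interactions in favour of adipocytes, 3.11 and 3.08. Pairs were looked for after the values were seen, and neighbouring genes that share reads were not tested for.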
